A study of Homo sapiens with 18 samples.

Results

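The 10 genes LAMP3, LPCAT1, NAPSA, SFTPA1, SFTPB, SFTPC, SFTPD, SLC34A2, SLC39A8 and CTSH, which are markers of alveolar type II cells of the lung, were followed in the cell line A549 under sodium propionate (SP). They were taken from 2 tables of read counts by matching each Ensembl identifier to its symbol in the GENCODE annotation of GRCh38, and all 10 were found among the 61541 genes listed. Each gene was given equal weight. A549 is an established human lung adenocarcinoma line (wild type, grown in high glucose DMEM with serum), so these are cultured carcinoma cells of 1 line and not primary alveolar cells. The first table holds untreated cells at 3 days (control 3 days) and cells kept in 5 mM SP for 3 days (SP 3 days) or 12 days (SP 12 days). The second holds untreated cells at 24 h (control 24 h) and cells in 5 mM SP for 3 h (SP 3 h) or 24 h (SP 24 h). Every group has 3 libraries, numbered as replicates in the labels, with 14187401 to 43765330 counted reads each. SP 12 days was set against a control of 3 days and SP 3 h against a control of 24 h, so in these comparisons SP and time in culture cannot be told apart.

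Alveolar type II cells make pulmonary surfactant, a film of phospholipid and protein that lowers surface tension in the air spaces. Its lipids and its small hydrophobic proteins SP-B and SP-C (SFTPB, SFTPC) are packed in lamellar bodies, organelles related to lysosomes, while the collectins SP-A and SP-D (SFTPA1, SFTPD) bind microbes in the lining fluid. The remaining members serve this programme: the proteases napsin A (NAPSA) and cathepsin H (CTSH) trim surfactant protein precursors, LAMP3 lies in the lamellar body membrane, LPCAT1 makes the dipalmitoyl phosphatidylcholine of surfactant, SLC34A2 recovers phosphate and SLC39A8 imports zinc and other divalent metals.

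With SP for 3 or 12 days, LAMP3, LPCAT1 and CTSH rose, and with SP for 24 h LAMP3, CTSH and SFTPC rose while SLC39A8 fell. LAMP3, and SFTPC at 24 h, could be tested only because their SP libraries had enough reads. LAMP3 had the largest fold of the members tested in the first table, 12.8-fold at 3 days and 14.3-fold at 12 days. No member passed an adjusted p of 0.05 at 3 h. SFTPA1, SFTPB and SLC34A2 had at most 10 reads in any library and were tested in neither table.

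The stretch before the start site is shown for 4 members, the 2 called members with an entry and the 2 surfactant protein genes with a TATAA motif, because the called genes and the surfactant genes differ there in base composition. The 150 bases before the RefSeq start (GRCh38.p14) are given 5′ to 3′ on the strand of the gene. Capitals mark CCGCCC, the reverse complement of GGGCGG, in LPCAT1 and CTSH, and TATAA in SFTPA1 and SFTPB.
LPCAT1 (chr5:1523961-1524110, minus strand): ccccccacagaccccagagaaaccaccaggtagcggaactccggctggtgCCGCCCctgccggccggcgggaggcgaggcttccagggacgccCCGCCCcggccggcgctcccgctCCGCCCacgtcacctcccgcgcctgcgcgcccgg
CTSH (chr15:78945047-78945196, minus strand): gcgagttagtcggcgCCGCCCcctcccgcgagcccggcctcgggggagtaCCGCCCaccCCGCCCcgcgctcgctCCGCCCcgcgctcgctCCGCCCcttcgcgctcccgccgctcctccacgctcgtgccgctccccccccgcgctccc
SFTPA1 (chr10:79610789-79610938, plus strand): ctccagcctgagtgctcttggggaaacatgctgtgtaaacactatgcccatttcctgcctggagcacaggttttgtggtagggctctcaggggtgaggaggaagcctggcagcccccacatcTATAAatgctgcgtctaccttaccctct
SFTPB (chr2:85668200-85668349, minus strand): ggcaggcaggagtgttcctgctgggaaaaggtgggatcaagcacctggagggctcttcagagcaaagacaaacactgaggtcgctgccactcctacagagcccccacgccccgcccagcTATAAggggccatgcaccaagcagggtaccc

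RefSeq promoters were matched for 8 of the 10 members, and LAMP3 and SFTPC had no entry. Within 250 bases before the start, CTSH held 32 CpG, LPCAT1 28 and SLC39A8 23, against a median of 11 over all promoters. The window of SLC34A2 was as rich, with 33 CpG. In contrast, SFTPB and NAPSA held 3 CpG each, SFTPA1 2 and SFTPD 1. On both strands of these windows 3 strings of letters were searched: GGGCGG, the GC box, TATAA, the core of the TATA box, and GCNCTNNAG, written here as a consensus of NKX2-1. GGGCGG occurred 5 times in CTSH, 3 times in LPCAT1 and once in SFTPB, and 42.6% of all promoters held it. TATAA occurred once each in SFTPA1 and SFTPB, against 18.9% of all promoters. GCNCTNNAG was found 4 times in SFTPB and in no other member with an entry, and 14.3% of all promoters held it. These matches are descriptions of letters, and no binding was measured here.

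Levels were compared between genes as RPKM, the reads scaled to the depth of the library and to the length of the exons, with libraries scaled by TMM factors within their own table. LPCAT1 had the highest level in every group, with group means of 17.6 to 53.1 RPKM, above 87.8% to 96.6% of protein coding genes. SLC39A8 followed at 4.27 to 7.23 RPKM. CTSH had 1.54 to 5.95 RPKM, where the median of coding genes with a read lay between 2.69 and 3.22. NAPSA (0.08 to 0.69 RPKM) and LAMP3 (0.05 to 0.72 RPKM) were under that median in every group. SFTPC reached at most 0.23 RPKM, SFTPD 0.14, SFTPB 0.06, SLC34A2 0.03 and SFTPA1 0.02, values that rest on few reads, so their order among themselves cannot be set. The order of CTSH and SLC39A8 was not constant, and SLC39A8 was higher in both controls. With SP for 3 days CTSH had 5.63 ± 0.01 and SLC39A8 4.98 ± 0.40 RPKM (SD, n = 3). With SP for 12 days they had 5.95 ± 0.45 and 6.35 ± 0.14, and their libraries overlapped. By the length of the longest transcript their libraries overlapped at 3 days, with means of 10.7 RPKM for CTSH and 10.3 for SLC39A8, and at 12 days SLC39A8 was the higher, at 13.1 against 11.3, so their order with SP rests on the length used. NAPSA and LAMP3 did not differ beyond their spread in SP 3 days, at 0.69 ± 0.08 and 0.65 ± 0.02 RPKM. The surfactant proteins, which define the cell type, were thus at or near 0 in this line, and of the 13 alveolar type II markers checked, 5 passed the expression filter in the second table and 6 in the first.

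**Figure D1:**
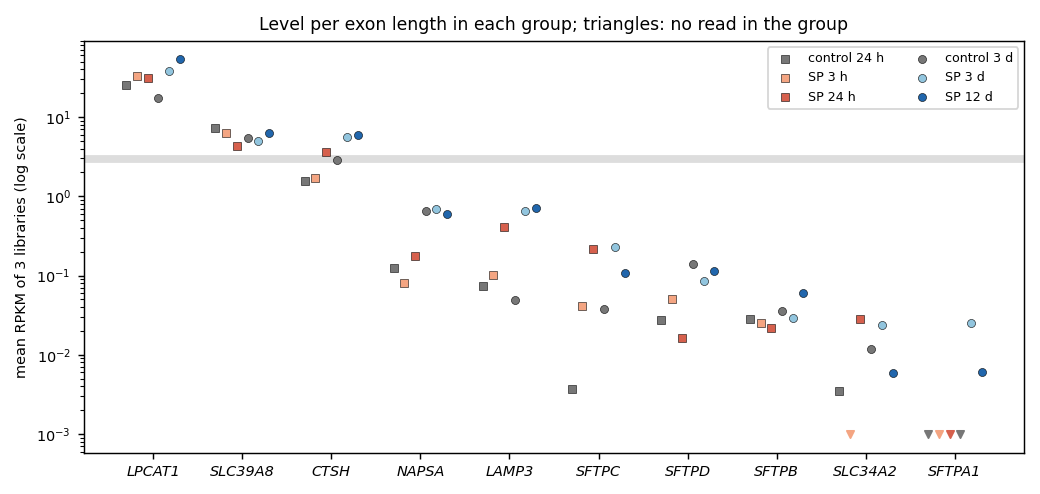
Mean RPKM of the 3 libraries of each group (vertical log axis) for the 10 members, squares for the second table and circles for the first, with the grey band at the median of coding genes with a read and triangles for groups with no read. LPCAT1 lies above the band in every group (17.6 to 53.1 RPKM), and the surfactant protein genes and SLC34A2 lie below 0.3 RPKM.

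Of the 10 members, 6 passed the expression filter in each table. LAMP3, LPCAT1, NAPSA, SLC39A8 and CTSH passed in both, SFTPD in the first and SFTPC in the second. SFTPC passed in the second table, and LAMP3 in both, through SP libraries alone, so these genes were tested because they were high there, and the counts over tested members that follow are descriptions. At 3 days, 3 of the 6 tested members were higher past an adjusted p of 0.05 by edgeR's quasi-likelihood test and 0 lower, where 25.2% of all 17775 tested genes were higher and 23.3% lower. At 12 days, 4 were higher and 0 lower, against 26.4% and 23.4% of all tested genes. At 24 h, 3 were higher and 1 lower, against 16.8% and 12% of the 17377 genes tested. At 3 h, 0 were higher or lower, SFTPC alone of the 6 was under 0.05 before adjustment in edgeR, DESeq2 also passed 0, and 7.39% of tested genes were higher and 4.11% lower. With so few members these counts say little about the group as such. At the thresholds of the study, an adjusted p under 0.0001 with at least a 2-fold change, LAMP3 and LPCAT1 were called at 3 days (background 6.58% of tested genes higher and 1.86% lower) and LAMP3, LPCAT1 and CTSH at 12 days (6.88% and 2.23%). By edgeR no member was called at these thresholds at 24 h, where 0.622% of tested genes were called higher and 0.0633% lower, nor at 3 h, where 0 genes were called. The study used DESeq2, with which 2 members and 6.86% of tested genes were called at 24 h. Between SP times, 3 members were higher and 1 lower at 24 h than at 3 h past an adjusted p of 0.05 (11.7% and 8.4% of tested genes), and 2 were higher and 0 lower at 12 days than at 3 days (4.46% and 3.65%). None of these reached the study thresholds, which 0.0288% of tested genes reached upward and 0% downward between 3 and 24 h, and 0.152% and 0.0281% between 3 and 12 days.

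The libraries of the groups compared did not overlap for 3 members upward and 0 downward at 3 days (30.5% and 30.7% of tested genes), 4 and 0 at 12 days (28.7% and 27.3%), 3 and 1 at 24 h (24.6% and 19.8%) and 1 and 0 at 3 h (15.6% and 11.7%). Between SP times these numbers were 4 and 1 from 3 to 24 h (23.3% and 21.6%) and 2 and 0 from 3 to 12 days (13.9% and 12.9%).

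With equal weight per gene, the median log2 fold change of the tested members was 0.51 at 3 days and 0.63 at 12 days, beside -0.02 and -0.00 over all tested genes. It was 0.25 at 3 h and 0.84 at 24 h, beside 0.00 and -0.01. LAMP3, and SFTPC in the second table, count in these medians only because SP libraries took them past the filter, which raises the medians by construction, so they are no measure of the group. The sum of reads gives another picture, because LPCAT1 alone held 56.0% to 73.1% of the summed CPM of the 10 genes in the 6 groups. RNA was measured from whole cultures, so a larger share of cells with a transcript and more transcript per cell cannot be told apart.

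LAMP3 (ENSG00000078081, chr3:183122215-183163839, minus strand), the lysosomal membrane protein found in lamellar bodies and in mature dendritic cells, was near absent without SP. Its reads in the first table were 4, 2 and 4 in control 3 days, 39, 41 and 42 in SP 3 days, and 40, 40 and 82 in SP 12 days. The control and SP libraries did not overlap, and library 3 of SP 12 days was the highest of all, with 3.63 CPM against 2.53 and 1.996 in the others. LAMP3 rose by 3.68 ± 0.37 on the log2 scale at 3 days (standard error, adjusted p = 8.02e-07) and 3.83 ± 0.36 at 12 days (adjusted p = 3.55e-07). In the second table the reads were 4, 6 and 9 in control 24 h, 8, 11 and 6 in SP 3 h, and 28, 92 and 44 in SP 24 h. The libraries of SP 3 h overlapped the control and those of SP 24 h did not. The log2 fold change was 2.45 ± 0.37 at 24 h (adjusted p = 0.0013) and 0.36 ± 0.45 at 3 h (adjusted p = 0.699), and SP 24 h was above SP 3 h by 2.097 on the log2 scale (adjusted p = 0.00402). As ratios of summed reads with 95% counting intervals, LAMP3 was 5.78 (3.59 to 9.85) at 24 h and 13.3 (6.96 to 28.3) at 3 days. SP 12 days and SP 3 days differed by 0.15 (95% interval -0.35 to 0.66).

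LAMP3 also marks dendritic cells, so the markers of blood cells were measured beside it. The summed level of 9 such markers was 8.10 to 9.61 CPM in control 24 h and 25.2 to 30.7 CPM in SP 24 h. In the first table it was 28.2 to 31.5 CPM in the control, 86.3 to 96.3 CPM in SP 3 days and 54.7 to 79.5 CPM in SP 12 days. ITGAX (log2 fold change 2.76 at 24 h, 2.83 at 3 days and 2.61 at 12 days) and CD14 (2.22 at 24 h and 1.08 at 3 days) rose. They held most of the sum in SP 3 days, with 2409 and 1785 reads, against 121 for CD83 and 22 for CD68. Ratios to control at 3 days were 0.72 for CD68 (counting interval 0.40 to 1.28) and 1.05 for CD79A (0.59 to 1.86). CD68 shares 1765 bases of exon with a lncRNA on its strand, so its reads are uncertain to that extent. CD14 in SP 12 days was 1.09 times control (0.995 to 1.19). Of the genes that mark mature dendritic cells, CD83 rose at 3 days (1.17) and at 12 days (1.24), and CCR7, their homing receptor, fell at 3 days (-0.998) and at 12 days (-1.89). PTPRC, which codes for CD45 and defines blood cells, had 0 reads in all 9 libraries of the second table and 3, 1 and 1 reads summed over the untreated, 3 days and 12 days libraries of the first. Of the 9 blood markers 3 were at 0 in each group of the second table and 1 in each group of the first. The summed level of 9 markers of fibroblasts and endothelium was 17.3 to 18.2 CPM in control 3 days and 61.1 to 72.6 CPM in SP 3 days. It was 6.67 to 23.1 CPM in control 24 h and 62.9 to 92.1 CPM in SP 24 h. Most of the sum in SP 3 days was COL1A1, higher by 2.22 on the log2 scale at 3 days. COL1A1 had 3065 reads summed over SP 3 days, COL3A1 124 (against 73 over control 3 days) and COL1A2 0. LUM also rose, by 2.04 on the log2 scale at 3 days and 3.03 at 12 days, and PDGFRB rose by 3.496 at 24 h. The endothelial marker CDH5 went the other way (log2 fold change -0.94 at 3 days and -1.50 at 12 days). The part of other programmes in the rise of LAMP3 was not tested.

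LPCAT1 (ENSG00000153395, chr5:1456480-1523962, minus strand), the acyltransferase of surfactant lipid, showed the most precise change. It had 113, 110 and 119 CPM in control 3 days, 243, 249 and 236 CPM in SP 3 days, and 359, 342 and 332 CPM in SP 12 days. The 3 groups were fully separate. The rise was 1.09 ± 0.07 on the log2 scale at 3 days (adjusted p = 1.17e-08) and 1.60 ± 0.08 at 12 days (adjusted p = 2.29e-10). It was the only member called at the study thresholds whose SP 12 days exceeded its SP 3 days past the test, by 0.50 ± 0.07 (adjusted p = 6.57e-04). In the second table LPCAT1 had 145, 145 and 205 CPM in control 24 h, 237, 223 and 178 CPM in SP 3 h and 212, 176 and 217 CPM in SP 24 h. Control library 3 lay within the range of the SP libraries, and neither SP time passed the test (log2 fold change 0.36 with adjusted p = 0.212 at 3 h, and 0.29 with adjusted p = 0.221 at 24 h). Without that control library both passed, with adjusted p = 0.0381 at 3 h and 0.0313 at 24 h. The 95% intervals were -0.01 to 0.74 at 3 h and -0.09 to 0.66 at 24 h.

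CTSH (ENSG00000103811, chr15:78921058-78949574, minus strand), the aminopeptidase that takes part in the maturation of SP-B and SP-C, rose at 24 h, 3 days and 12 days. It had 42.0, 34.4 and 43.1 CPM in control 3 days, 77.3, 77.3 and 77.6 CPM in SP 3 days and 88.8, 76.8 and 80.1 CPM in SP 12 days. All SP libraries lay above all controls. CTSH rose by 0.96 ± 0.09 on the log2 scale at 3 days (adjusted p = 6.34e-07) and 1.04 ± 0.09 at 12 days (adjusted p = 2.33e-07). The fold of 1.94 at 3 days was just under the study threshold of 2 and that of 2.05 at 12 days just over it, and the times did not separate, with a difference of 0.08 (95% interval -0.11 to 0.27). In the second table CTSH had 19.0, 22.7 and 21.9 CPM in control 24 h, 19.2, 26.0 and 24.7 CPM in SP 3 h and 44.8, 50.5 and 52.2 CPM in SP 24 h. SP 24 h stood clear of both other groups, above the control by 1.21 ± 0.14 (adjusted p = 3.88e-04) and above SP 3 h by 1.07 ± 0.14 (adjusted p = 0.00148).

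NAPSA (ENSG00000131400, chr19:50358472-50365830, minus strand), the other protease of the precursors and a diagnostic marker of lung adenocarcinoma, gave no change past the test at any time. It had 48, 48 and 30 reads in control 3 days, 38, 46 and 38 in SP 3 days and 31, 37 and 61 in SP 12 days. These libraries overlapped, and the 95% interval of the log2 fold change was -0.44 to 0.58 at 3 days and -0.61 to 0.40 at 12 days, so a change of 2-fold lay outside both. Reads were fewer in the second table, with 4, 12 and 14 in control 24 h, 1, 16 and 7 in SP 3 h and 15, 25 and 21 in SP 24 h. SP 24 h lay above SP 3 h in CPM without overlap, yet the difference of 0.91 did not pass (adjusted p = 0.225). NAPSA shares 1182 bases of exon with NR1H2 on the opposite strand, and since strand handling is not given in the sources used here, reads of these genes cannot be told apart.

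**Figure D2:**
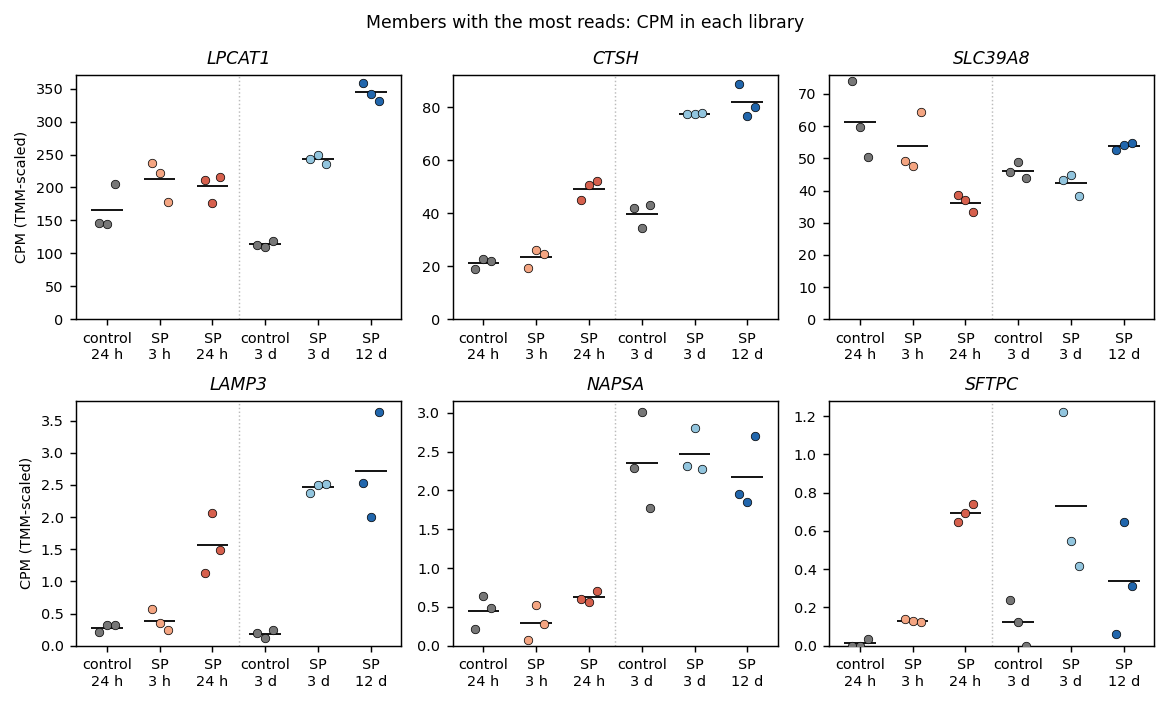
CPM in each library (vertical axis, from 0) for the 6 members with the most reads, in the 6 groups, with a line at the mean of 3 libraries and a dotted line between the separately scaled tables. LPCAT1, CTSH and LAMP3 of SP 3 days and SP 12 days lie above every control 3 days library, and SLC39A8 of SP 24 h (33.3 to 38.5 CPM) lies below every control 24 h library (50.3 to 74.0 CPM).

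SLC39A8 (ENSG00000138821, chr4:102251080-102431258, minus strand), the metal importer ZIP8, was the only member that fell. It had 74.0, 59.8 and 50.3 CPM in control 24 h, 49.3, 47.5 and 64.3 CPM in SP 3 h and 38.5, 37.0 and 33.3 CPM in SP 24 h. The SP 24 h libraries were below all others of the table, and against the control the level fell by 0.76 ± 0.17 on the log2 scale (adjusted p = 0.00895). In the first table it had 45.8, 48.9 and 43.7 CPM in control 3 days, 43.4, 44.9 and 38.3 CPM in SP 3 days and 52.5, 54.2 and 54.8 CPM in SP 12 days. At 3 days the groups overlapped (log2 fold change -0.13, adjusted p = 0.232). At 12 days SLC39A8 was higher by 0.22 ± 0.09 (adjusted p = 0.0397), a call that was lost in 11 of 16 alternative analyses, 8 of them the fits that leave out any 1 library other than control library 2. SP 12 days was above SP 3 days by 0.35 ± 0.09 (adjusted p = 0.0193), a call lost in 5 of 16 alternative analyses. At 24 h the level fell by 0.57 ± 0.17 relative to SP 3 h (adjusted p = 0.0399), a call lost in 8 of 16, among them the fit with the replicate block (adjusted p = 0.0670). The 2 tables differ in control, time and spread, so the fall at 24 h and the value at 12 days were not tested against each other.

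SLC34A2 (ENSG00000157765, chr4:25648011-25678748, plus strand), the sodium phosphate cotransporter of the apical membrane, was all but absent. It had 0, 1 and 0 reads in control 24 h, 0 in each library of SP 3 h, and 0, 10 and 6 in SP 24 h. The reads at 24 h came from libraries 2 and 3 alone. Summed over libraries SP 24 h had 16 reads against 1 in the control, a ratio of 10.7 with a counting interval of 1.67 to 450, and was at least 3.75-fold higher than SP 3 h against a floor of 3 reads over the group. Counting intervals cover counting error only, and the spread of 0 to 10 between libraries of 1 group is wider than that. In the first table the reads were 0, 0 and 3 in control 3 days, 1, 2 and 3 in SP 3 days and 0, 0 and 2 in SP 12 days, and no difference was detectable at this depth.

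SFTPC (ENSG00000168484, chr8:22156913-22164479, plus strand), the surfactant protein found almost only in type II cells, had few reads, but more with SP. It had 0, 0 and 1 reads in control 24 h, 2, 4 and 3 in SP 3 h and 16, 31 and 22 in SP 24 h. The 3 groups did not overlap, also in CPM, where SP 24 h had 0.65, 0.69 and 0.74. Summed over libraries the counts were 1, 9 and 69, so that the ratio to control was 8.58 (counting interval 1.19 to 376) at 3 h and 46.2 (8.03 to 1852) at 24 h. SP 24 h was 5.39 times SP 3 h (2.68 to 12.3). SFTPC entered the quasi-likelihood test because its SP 24 h libraries passed the filter, so the test was open to it only through the group where it was high. It passed at 24 h (log2 fold change 5.15 ± 0.57, adjusted p = 2.91e-04) and not at 3 h (2.77 ± 0.79, adjusted p = 0.0625), but with 1 control read the fitted folds depend on the prior count. Without control 24 h library 3, the library with that read, the adjusted p at 3 h was 0.0441. In the first table SFTPC had 5, 2 and 0 reads in control 3 days, 20, 9 and 7 in SP 3 days and 1, 13 and 7 in SP 12 days. SP 3 days lay above the control in every library, with a ratio of 5.59 (2.45 to 14.9), while SP 12 days overlapped it, with a ratio of 2.76 (1.13 to 7.69). SFTPC did not pass the filter there. In the fit with no filter its adjusted p was 3.03e-04 at 3 days and 0.106 at 12 days. In SP 24 h its level was 0.22 RPKM, or 0.66 by the length of the longest transcript, and 89 bases of its exons are shared with LGI3 on the opposite strand.

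SFTPD (ENSG00000133661, chr10:79937467-79982614, minus strand), the collectin SP-D, had 8, 11 and 12 reads in control 3 days, 3, 5 and 10 in SP 3 days and 5, 9 and 15 in SP 12 days. The groups overlapped and neither time passed (log2 fold change -0.67 with adjusted p = 0.275 at 3 days, and -0.24 with adjusted p = 0.684 at 12 days). In the second table it was not tested, with 7 reads summed over control 24 h, 15 over SP 3 h and 7 over SP 24 h. SFTPB (ENSG00000168878, chr2:85657314-85668741, minus strand), without which lamellar bodies do not form, had 0 to 7 reads per library. Its highest count was in SP 12 days, with 3, 5 and 7 reads against 3, 1 and 4 in control 3 days, and the ratio of 1.73 had a counting interval of 0.687 to 4.70. SFTPA1 (ENSG00000122852, chr10:79610939-79615455, plus strand), the collectin SP-A, had 0 reads in all libraries of the second table and of control 3 days, and 1, 2 and 0 in SP 3 days and 0, 0 and 1 in SP 12 days. SFTPA2, its near-identical neighbour whose reads can fall on either gene, had at most 1 read summed over any group. For these 3 genes no difference from control was detectable at this depth.

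**Figure D3:**
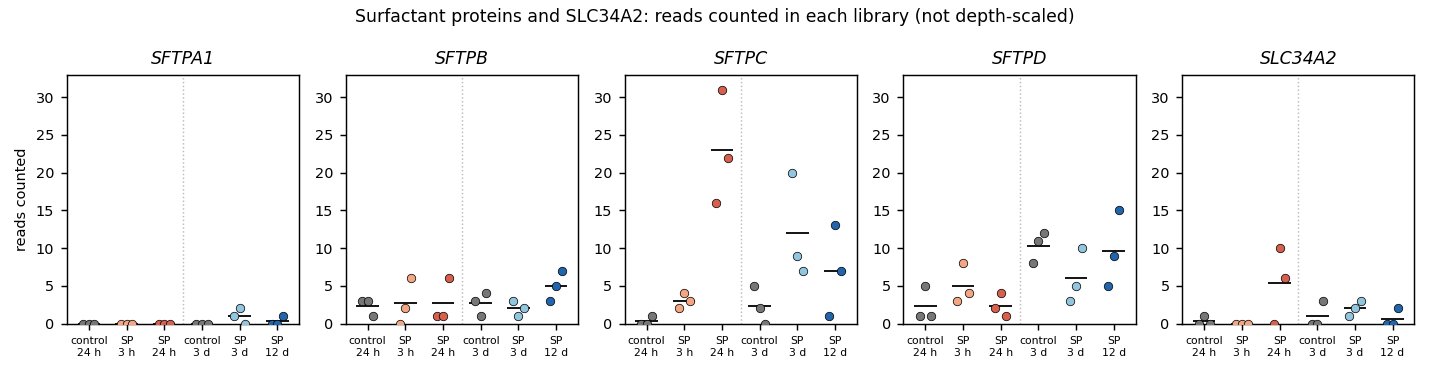
Reads counted in each library (vertical axis, 0 to 33, not scaled for depth) for the 4 surfactant protein genes and SLC34A2, with a line at the group mean. SFTPC reaches 16 to 31 reads in SP 24 h against 0 to 1 in its control, and SFTPA1 has at most 2 reads anywhere.

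**Figure D4:**
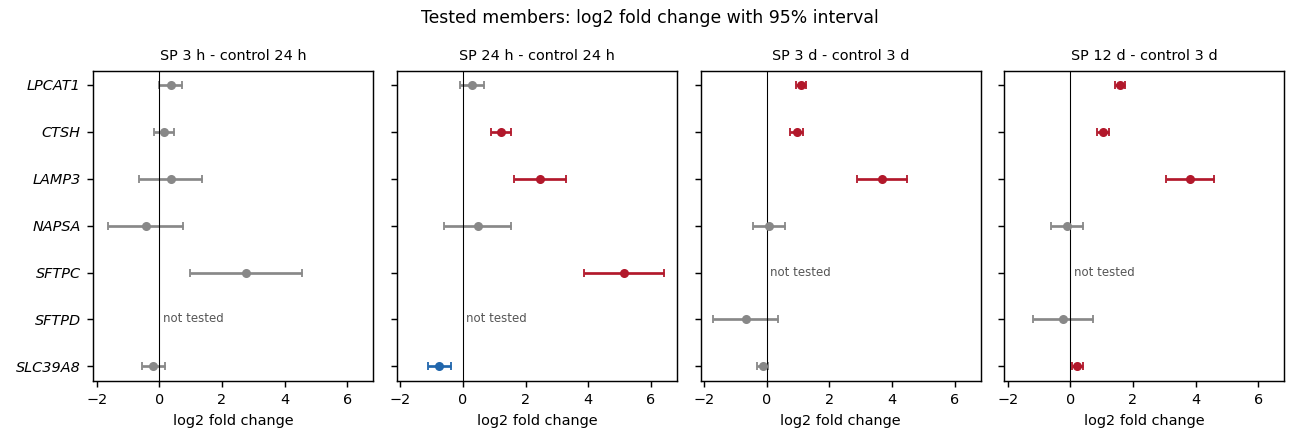
Log2 fold change with its 95% interval for the members tested in either table (horizontal axis) in the 4 comparisons with control, red and blue for members higher and lower past an adjusted p of 0.05 and grey for the others. LAMP3 lies at 2.45 at 24 h and 3.68 and 3.83 at 3 and 12 days, and NAPSA spans 0 in all 4 panels.

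Genes whose pattern over the 18 libraries was most like that of a called member were sought among 16654 genes tested in both tables, each as log2 CPM minus the mean of its own control. Nearest to LAMP3 were HLA-B (Pearson r = 0.990), NDRG4 (0.986) and RAB6B (0.986). Among the nearest to CTSH were ADGRE2 (0.976) and TNNI3 (0.976), and nearest to LPCAT1 were AFAP1L2 (0.975), PALM2AKAP2 (0.971) and AP1S3 (0.968). The points share libraries and groups, so that any gene which follows the treatment scores high, and the values are given as a description.

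The genes of surfactant lipid synthesis that surround LPCAT1 were higher more often than lower. Of the 19 tested in the first table, 10 rose and 0 fell past an adjusted p of 0.05 at 3 days, and 9 rose and 0 fell at 12 days, where 25.2% and 23.3% of all tested genes did at 3 days and 26.4% and 23.4% at 12 days. Of the 18 tested in the second, 7 were higher and 3 lower at 24 h (16.8% and 12% of all tested genes) and 2 and 0 at 3 h (7.39% and 4.11%). LPCAT2, which acylates lysophosphatidylcholine as LPCAT1 does, rose at 24 h (log2 fold change 1.16), at 3 days (1.42) and at 12 days (1.48). FASN, the fatty acid synthase, rose by 1.39 at 3 days and 1.37 at 12 days, and SREBF1, a transcription factor of lipid synthesis, by 1.78 at 24 h and 0.997 at 3 days. The fatty acid binding protein FABP5 and the phosphotransferase CHPT1 were among those that fell at 24 h, by 0.87 and 0.40. The median over the list was 0.51 at 3 days and 0.19 at 12 days.

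The lamellar body and lysosome genes, the organelle of LAMP3 and CTSH, moved in both directions. Of 23 tested, 10 rose and 5 fell at 3 days, and 8 rose and 4 fell at 12 days. Of all tested genes 25.2% rose and 23.3% fell at 3 days, and 26.4% and 23.4% at 12 days. Of 22 tested in the second table, 4 were higher and 2 lower at 24 h and 2 and 0 at 3 h, shares near those of all tested genes (16.8% and 12% at 24 h, 7.39% and 4.11% at 3 h). Cathepsins parted: CTSB rose by 0.75 at 24 h and 1.10 at 3 days, whereas CTSL fell by 0.44 at 24 h, 1.36 at 3 days and 1.21 at 12 days and CTSS fell by 1.21 and 0.91 at 3 and 12 days. P2RY2, the ATP receptor that triggers surfactant secretion, rose by 1.54 and 1.55 at 3 and 12 days, though 3361 bases of its exons are shared with a lncRNA on its strand. The median over the list was 0.14 at 3 days and 0.16 at 12 days.

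Among the transcriptional and signalling regulators of type II cells, 4 of 12 tested were higher and 0 lower at 3 h, and 6 and 0 at 24 h. Of 13 tested in the first table, 3 rose and 5 fell at 3 days, and 3 rose and 6 fell at 12 days. Among all tested genes 7.39% were higher and 4.11% lower at 3 h, and 16.8% and 12% at 24 h. The shares were 25.2% and 23.3% at 3 days, and 26.4% and 23.4% at 12 days. NKX2-1, the transcription factor that drives surfactant genes, had 2 reads summed over control 3 days, 87 over SP 3 days and 47 over SP 12 days, with log2 fold changes of 5.32 (adjusted p = 1.60e-05) and 4.18 (adjusted p = 4.80e-04). These folds rest on 2 control reads, and NKX2-1 passed the filter there only through its SP libraries. Of its exons, 1033 bases are shared with SFTA3 and 402 with NKX2-1-AS1. Even with SP for 3 days its level was 1.76 ± 0.25 CPM (SD, n = 3). In the second table NKX2-1 had 1, 13 and 27 reads summed over control 24 h, SP 3 h and SP 24 h. GATA6 rose at all 4 times (0.88 at 3 h, 1.04 at 24 h, 0.67 at 3 days and 0.76 at 12 days). In contrast FOXA1 fell by 0.89 at 3 days, ETV5 by 0.75 and 0.62 at 3 and 12 days, and ERRFI1 by 0.99 and 1.30. Shorter stretches of exon, up to 813 bases in HHIP with HHIP-AS1, are shared with other genes in SREBF1, CHPT1, FABP5, LPCAT2, GATA6, FOXA1, ETV5, ERRFI1, ALPL, MUC1, SLC30A5 and MT1X, and their reads are uncertain to that extent.

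Further markers of type II cells were more often lower than higher in the first table, with 2 of 12 tested up and 6 down at 3 days, 3 up and 6 down at 12 days, and a median log2 fold change of -0.38 and -0.63. Of 11 tested in the second table, none rose and 2 were lower at 3 h, while 2 were higher and 1 lower at 24 h. All tested genes gave 25.2% up and 23.3% down at 3 days, and 26.4% and 23.4% at 12 days. They gave 7.39% and 4.11% at 3 h, and 16.8% and 12% at 24 h. ALPL, the alkaline phosphatase of the type II cell surface, rose by 4.03 at 24 h, 2.49 at 3 days and 1.91 at 12 days. These folds rest on few control reads, 14 summed over control 24 h and 25 over control 3 days. In both tables most of the reads of ALPL lay in SP libraries, so the test was open to it mainly through them. ABCA3, the lipid transporter of the lamellar body, rose by 0.93 at 3 days and 0.55 at 12 days. NNMT fell at all 4 times (-1.05 at 3 h, -2.01 at 24 h, -2.001 at 3 days and -1.91 at 12 days). The paper measured NNMT protein as a marker of the epithelial-to-mesenchymal transition, so the fall of NNMT cannot be read as one of type II identity alone. MUC1 fell by 1.47 at 3 days, and HHIP fell by 1.24 and 2.48 at 3 and 12 days.

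The zinc and phosphate genes around SLC39A8 and SLC34A2 moved in both directions. Of 16 tested, 5 rose and 4 fell at 3 days, 5 rose and 2 fell at 12 days, 4 rose and 1 fell at 24 h, and 0 rose and 1 fell at 3 h. For all tested genes the shares were 25.2% and 23.3% at 3 days, and 26.4% and 23.4% at 12 days. They were 16.8% and 12% at 24 h, and 7.39% and 4.11% at 3 h. The metallothionein MT1X, which buffers zinc, rose by 0.67 at 24 h, 0.78 at 3 days and 0.84 at 12 days, and MT1X and its paralogs are close in sequence, so reads may be split among them. The zinc transporter SLC30A5 fell by 0.48, 0.37 and 0.29 at the same times. The phosphate carrier SLC34A3, related to SLC34A2, was higher by 1.36 at 24 h.

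**Figure D5:**
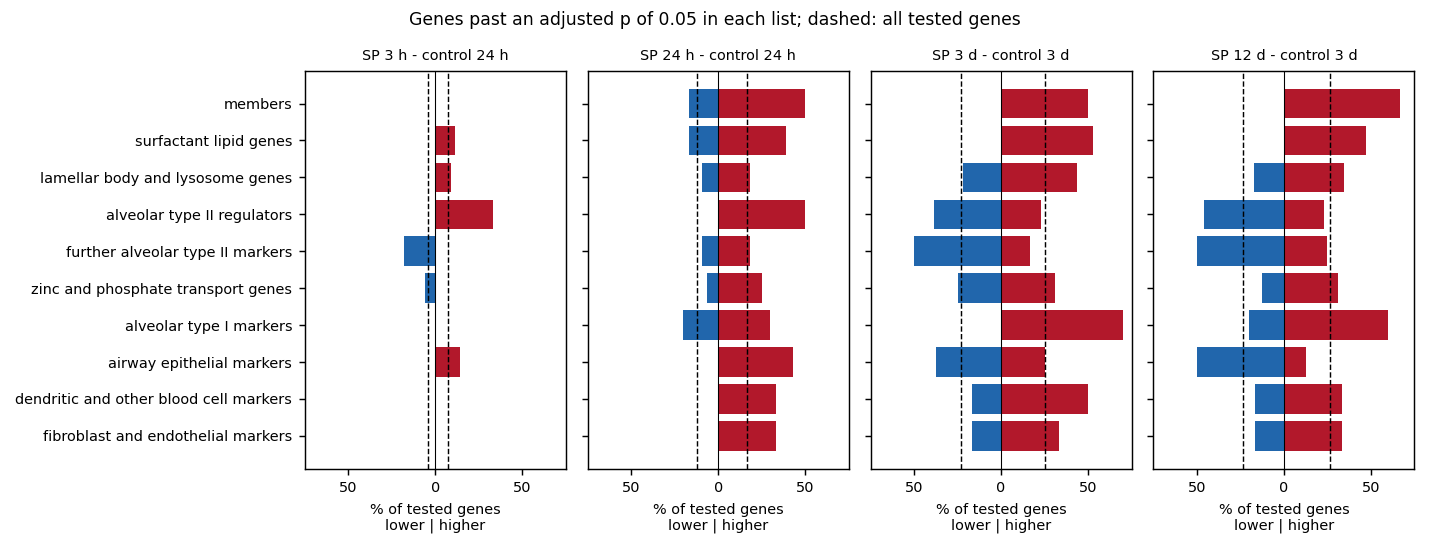
Percent of the tested genes of each list (horizontal axis) that were higher (red, to the right) or lower (blue, to the left) past an adjusted p of 0.05 in the 4 comparisons with control, with dashed lines at the percent of all tested genes. The members reach 4 of 6 higher at 12 days and further type II markers 6 of 12 lower at 3 days.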

How the data were processed

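RNA-seq counts of 18 libraries of A549 cells were used. The authors prepared libraries with a NEBNext Ultra kit, sequenced paired ends, aligned them to GRCh38 with STAR 2.7.9a and counted them with featureCounts. They deposited 2 tables of raw counts per Ensembl gene without normalization. Strandedness and the handling of multimapping reads are not given in the sources used here. No columns of other samples were present.

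Each table was fitted with its 9 libraries in edgeR 4.0.16 (R 4.3.3): filterByExpr with a minimum count of 10, TMM scaling, a robust quasi-likelihood model of the groups and Benjamini-Hochberg adjustment over all genes tested. Standard errors are the log2 fold change divided by the root of F, and 95% intervals use the t quantile at the degrees of freedom of the test. The study used DESeq2, which was run here (1.42.0) as an alternative. CPM use TMM-scaled totals, RPKM the union of exons in GENCODE v44. Ratios of summed reads carry exact 95% conditional binomial intervals, which cover counting error only. The fit was tested on simulated data. In a comparison shaped like SP 24 h with control 24 h (17377 genes) 43.3% of genes changed 2-fold and 85.1% of those changed 4-fold passed an adjusted p of 0.05, and in one shaped like SP 12 days with control 3 days (17775 genes) 74.6% and 97.0% did.

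Biological coefficients of variation were 0.0996 and 0.199 in the first and second table, and log2 fold changes had median standard errors of 0.13 and 0.20. No pair of libraries agreed within sampling noise. The labels number replicates without saying what they share, so p-values measure the spread between these libraries. Same-numbered libraries of SP 24 h and control 24 h had residual correlations of 0.499, 0.170 and 0.504, while differently numbered ones reached 0.175, above the middle value. SP 3 h and control 24 h did not follow the numbers. Their same-numbered libraries had -0.593 to -0.028 and differently numbered ones -0.573 to 0.576. The labels do not give a pairing, and the results reported come from the fit without a replicate block. The block was an alternative whose value is given where it changed a call.

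The members and the 9 further lists were chosen with earlier results of these data known. From each further list up to 3 rises and 3 falls with the largest change were selected in each comparison with control. They came from genes past an adjusted p of 0.05 whose mean count in 1 of the groups reached 10. Defining genes were named where their level is given. Not every selected gene is named above. Among those that are not are DMBT1 (log2 fold change 3.29 at 12 days, with 13 summed control reads), AQP3 (2.13 at 24 h), FOXJ1 (2.07 at 3 h), LRRK2 (-1.21 at 12 days) and FOXA2 (-0.75 at 12 days). For each member called at the study thresholds the 3 genes of most like pattern were named, of which 1 for CTSH is not reported here.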

Additional observations from a re-analysis of the deposited data

Results flagged for a closer look

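For 4 members the effect differed between SP 24 h and SP 3 h by the direct test of these groups, which share controls: LAMP3 by 2.097, SFTPC by 2.38, CTSH by 1.07 and SLC39A8 by -0.57 on the log2 scale. For 2 members it differed between SP 12 days and SP 3 days: LPCAT1 by 0.50 and SLC39A8 by 0.35. LAMP3 and SFTPC passed the filter through SP libraries alone. The calls of LAMP3, SFTPC, CTSH and LPCAT1 held in all 16 alternative analyses of each. That of SLC39A8 was lost in 8 of 16 between 3 and 24 h (adjusted p up to 0.140, without SP 3 h library 3; also with the replicate block alone or with the GC correction, and without control 24 h library 2, SP 3 h library 1 or any library of SP 24 h). It was lost in 5 of 16 between 3 and 12 days (up to 0.131, without SP 3 days library 3, and also without SP 3 days library 1 or 2 or SP 12 days library 1 or 2).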

How the results depend on the processing

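At the study thresholds 0 members were called at 24 h, but 2 with DESeq2 (6.86% of all tested genes, against 0.685% in edgeR) and 3 with no filter (3.06%). At an adjusted p under 0.05 with 2-fold 3 were called, and 4 at that adjusted p alone (16.8% of tested genes higher and 12% lower). For SP 24 h against SP 3 h these numbers were 0 (0.0288%), 2 (3.78%), 2 (1.63%), 3, and 4 (11.7% higher and 8.4% lower). For SP 12 days against SP 3 days 2 members were called at the adjusted p alone (4.46% and 3.65%). The share of all genes at 0.05 with 2-fold is not given here. The median log2 fold change of the members at 24 h was 0.84, and 0.62 with a GC content and length correction, with or without the replicate block, and for SP 24 h against SP 3 h 0.99 and 0.82 with that correction. Leaving out 1 library at a time gave 0 to 2 members past an adjusted p of 0.05 at 3 h (2 without control 24 h library 3), 4 to 5 at 24 h, 3 to 4 for SP 24 h against SP 3 h, 3 to 4 at 12 days and 1 to 2 for SP 12 days against SP 3 days. Of all 17377 genes, 627 to 1515 were higher and 319 to 702 lower at 3 h. At 24 h 1882 to 3495 and 939 to 3052 were, most without control 24 h library 3 at both times. For SP 24 h against SP 3 h they were 1173 to 2377 and 586 to 1980. Of all 17775 genes, 4067 to 4886 were higher and 3459 to 4973 lower at 12 days, and 305 to 2425 and 255 to 2621 for SP 12 days against SP 3 days. In these fits 6.06% to 11.6% of all tested genes were called at the study thresholds at 3 days, and 6.73% to 11.2% at 12 days. Members called at the study thresholds numbered 2 to 3 at 3 days (3 without control 3 days library 3) and at 12 days, where CTSH was lost without control 3 days library 2 or SP 12 days library 1. The medians ranged from 0.65 to 1.00 at 24 h, 0.77 to 1.38 for SP 24 h against SP 3 h, 0.45 to 0.57 at 3 days, 0.59 to 0.65 at 12 days and 0.083 to 0.34 for SP 12 days against SP 3 days. Values near 0 turned sign: LPCAT1 for SP 24 h against SP 3 h to 0.0098 and 0.0122 without SP 3 h library 1 and SP 24 h library 2 (range -0.19 to 0.01), NAPSA at 3 days to -0.0137 with the GC correction and -0.0131 with the block added, and to -0.0944 and -0.0440 without control 3 days library 3 and SP 3 days library 2 (range -0.0944 to 0.27), NAPSA at 12 days to 0.10 without control 3 days library 2 (range -0.33 to 0.10), and LAMP3 for SP 12 days against SP 3 days to -0.15 without SP 12 days library 3 (range -0.15 to 0.33). With the replicate block, the call of SLC39A8 for SP 24 h against SP 3 h was lost (adjusted p = 0.0670), and no other call of a member changed. Over all genes, the number called at the study thresholds was 119 at 24 h (2 with the replicate block, 1 without control 24 h library 2, 1192 with DESeq2), 0 at 3 h (415 with DESeq2), 5 for SP 24 h against SP 3 h (1 with the replicate block, 656 with DESeq2) and 32 for SP 12 days against SP 3 days (6 with only the groups compared, 298 without SP 12 days library 3). At an adjusted p under 0.05 it was 5009 at 24 h (2821 without SP 24 h library 2), 1999 at 3 h (946 without SP 3 h library 2, 3350 with the GC correction and block), 3497 for SP 24 h against SP 3 h (1759 without SP 24 h library 2) and 1440 for SP 12 days against SP 3 days (560 without SP 12 days library 1, 5046 without library 3). The cause of these shifts was not tested.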

Other observations

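Markers of the other cell types of the lung gave further values. Of 10 tested alveolar type I markers, 7 rose and 0 fell past an adjusted p of 0.05 at 3 days, 6 rose and 2 fell at 12 days, 3 rose and 2 fell at 24 h, and none moved at 3 h, where 0 had an adjusted p under 0.05 by edgeR. Over all tested genes 25.2% rose and 23.3% fell at 3 days, and 26.4% and 23.4% at 12 days. These shares were 16.8% and 12% at 24 h, and 7.39% and 4.11% at 3 h. SPOCK2 rose by 0.90 at 24 h, 1.06 at 3 days and 1.48 at 12 days, and GPRC5A by 1.21 at 24 h and 0.94 at 12 days. AGER, the receptor that defines type I cells, was lower by 0.50 at 12 days. CAV1 was lower at 24 h (-0.57) and higher at 12 days (1.07), in tables with different controls.

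Of 8 tested airway markers, 2 rose and 3 fell at 3 days, 1 rose and 4 fell at 12 days, and of 7 tested with the 24 h control 3 rose and 0 fell at 24 h, and 1 rose and 0 fell at 3 h. The gel-forming mucin MUC5AC fell by 2.29 at 3 days and 3.68 at 12 days, and TPPP3, found in ciliated cells, rose by 1.48 at 24 h, 1.14 at 3 days and 0.93 at 12 days. Of 6 tested fibroblast and endothelial markers 2 rose and 1 fell at 3 days and again at 12 days. Of 6 tested blood cell markers, 3 rose and 1 fell at 3 days, and 2 rose and 1 fell at 12 days. In the 24 h comparison 2 of 6 rose in each of these lists and 0 fell, and at 3 h 0 of 6 passed in either. Beside these airway, fibroblast, endothelial and blood counts, 25.2% of all tested genes rose and 23.3% fell at 3 days. The shares were 26.4% and 23.4% at 12 days, 16.8% and 12% at 24 h, and 7.39% and 4.11% at 3 h.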
